A study of Mus musculus with 13 samples.

Results

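A set of 8 genes that restrain MAP kinase signalling was followed in sorted CD4 T cells of the mouse spleen: the dual specificity phosphatases Dusp1, Dusp2, Dusp4, Dusp5, Dusp6 and Dusp10, and the Sprouty genes Spry1 and Spry2. They are all the rows with these 8 symbols among the 18649 genes of the deposited table, and all 8 passed the filter on low values (a mean scaled count of at least 10), as 14177 genes did. The PD1hi population (3 libraries) was CD4+, high for the surface receptor PD-1 and negative for GFP, which the labels tie to Foxp3. Regulatory T cells (Treg, 5 libraries) were CD4+, without surface PD-1 and GFP-positive, and conventional T cells (Tconv, 5 libraries) were CD4+ and lacked both. All the cells came from mice with the GFP mark of Foxp3, and the labels give neither strain, age, treatment nor the number of animals. Every population was sorted in experiments 3, 5 and 6, and 4 libraries (2 of Treg from experiments 3 and 6, 2 of Tconv from experiments 5 and 6) carry the word replicate in their title beside a partner with the same population and experiment. The question was how these genes differ in RNA level between PD1hi cells and the other populations.

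MAP kinases are switched on when upstream kinases phosphorylate a threonine and a tyrosine, and the dual specificity MAP kinase phosphatases remove both phosphates. Members differ in place and preference: some act in the nucleus and are induced within minutes of a stimulus, others act in the cytoplasm, and some prefer ERK while others prefer JNK and p38. Sprouty proteins act further upstream, between receptors and the kinase cascade, and several genes of both families are themselves induced by ERK activity, so that they form a feedback loop in T cells as in other cells.

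The stretches before the start sites of 5 members that changed in at least 1 comparison are shown, since these are the regions from which genes of this feedback loop are read. They are the 250 bases before the RefSeq start in build GRCm38.p6, written 5′ to 3′ on the strand of the gene, with motif matches in capitals. Positions are Spry1 chr3:37639697-37639946 (plus strand), Dusp1 chr17:26508473-26508722 (minus strand), Dusp5 chr19:53528895-53529144 (plus strand), Dusp6 chr10:99262981-99263230 (plus strand) and Dusp10 chr1:184034131-184034380 (plus strand).
Spry1: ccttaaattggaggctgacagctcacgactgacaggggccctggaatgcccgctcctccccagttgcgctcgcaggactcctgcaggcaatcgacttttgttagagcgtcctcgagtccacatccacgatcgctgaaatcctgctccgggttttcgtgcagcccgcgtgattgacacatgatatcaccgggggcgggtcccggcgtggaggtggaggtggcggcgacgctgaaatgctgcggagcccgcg
Dusp1: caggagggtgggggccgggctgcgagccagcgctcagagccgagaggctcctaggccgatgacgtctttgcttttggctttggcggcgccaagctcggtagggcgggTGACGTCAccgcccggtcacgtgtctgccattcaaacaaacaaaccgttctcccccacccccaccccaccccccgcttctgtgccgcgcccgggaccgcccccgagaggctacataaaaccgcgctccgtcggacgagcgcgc
Dusp5: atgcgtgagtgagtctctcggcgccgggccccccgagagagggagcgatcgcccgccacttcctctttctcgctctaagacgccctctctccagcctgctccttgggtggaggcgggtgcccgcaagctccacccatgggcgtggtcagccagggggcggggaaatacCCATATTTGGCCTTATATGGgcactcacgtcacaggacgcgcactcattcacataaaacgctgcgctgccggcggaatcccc
Dusp6: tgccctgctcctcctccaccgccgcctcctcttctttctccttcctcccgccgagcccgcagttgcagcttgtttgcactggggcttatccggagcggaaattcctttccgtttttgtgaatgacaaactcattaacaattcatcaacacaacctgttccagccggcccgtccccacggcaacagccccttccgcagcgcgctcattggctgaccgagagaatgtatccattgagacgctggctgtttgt
Dusp10: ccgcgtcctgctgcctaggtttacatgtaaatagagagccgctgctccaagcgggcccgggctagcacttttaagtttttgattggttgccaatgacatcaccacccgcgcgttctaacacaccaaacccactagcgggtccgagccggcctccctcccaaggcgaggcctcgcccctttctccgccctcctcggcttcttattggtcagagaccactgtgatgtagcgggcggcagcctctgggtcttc
The motif search covered both strands of the RefSeq windows, 250 bases before to 50 after the start, of 7 of the 8 genes (Dusp4 was not matched). Motifs searched were the cAMP response element TGACGTCA, AP-1 as TGANTCA, EGR as GCGNGGGCG, the CArG box by its name, TATAAA, the STAT motif TTCNNNGAA and the ETS motif CCGGAAG. The Dusp1 window held TGACGTCA at -143 to -136 from the start, a motif found in 1.79% of all 32851 windows. Dusp5 had 2 neighbouring CArG boxes, CCATATTTGG at -82 to -73 and CCTTATATGG at -72 to -63, and 1.63% of windows held at least 1. The Dusp2 window, not shown, held 1 EGR match, GCGGGGGCG at -98 to -90, a motif in 5.55% of windows. No match lay in the windows of Dusp6, Dusp10, Spry1 and Spry2. AP-1, TATAAA, STAT and ETS letters were in 7.81%, 13.6%, 8.3% and 8.86% of all windows and in none of the 7. Matches are letters in a window and say nothing of a factor bound there.

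Libraries held 15971126 to 24216463 reads in genes. Values are scaled counts, the authors' counts divided by a size factor, and fold changes compare log2(scaled count + 1), so that changes of weakly expressed genes come out too small. The sort matched its defining genes: Pdcd1, which encodes PD-1, averaged 37372 ± 3290 scaled counts in PD1hi, 1955 ± 38.5 in Treg and 1132 ± 136 in Tconv, and Foxp3 averaged 106.0 ± 33.4, 15889 ± 513 and 291.5 ± 35.8 in the same order (SD, n = 3 experiments). Cd4 averaged 40736 ± 5837 in PD1hi cells, 17161 ± 1945 in Treg cells and 28067 ± 1638 in Tconv cells. Summed levels of 7 B cell markers were 1672 to 2265 in PD1hi, 787 to 1242 in Treg and 202 to 397 in Tconv, carried by Cd22 and Cd79b. The defining B cell gene Pax5 had 2 to 10 reads in PD1hi libraries, 0 to 3 in Treg and 0 to 3 in Tconv. Summed levels of 6 CD8 T and NK markers were 561 to 744 in PD1hi, 360 to 620 in Treg and 1906 to 2025 in Tconv, and those of 7 myeloid markers 273 to 508, 289 to 689 and 302 to 617. The CD8 T and NK sum in Tconv was carried by Klrb1c, Cd8b1 and Klrd1. Cd8a had 0 to 14 reads in PD1hi libraries, 0 to 23 in Treg and 1 to 17 in Tconv. The part of such cells in the results was not tested. In these bulk samples, fewer cells that express a gene and less RNA per cell cannot be told apart. The second Treg library of experiment 3 and the PD1hi library of experiment 6 stood apart from the rest of their groups. In a principal component analysis of the 13 libraries they lay at -50.7 and -53.4 on component 3, which held 7.88% of the variance. The rest of their groups lay at 6.3 to 16.5 (Treg) and at 31.6 and 35.4 (PD1hi). Several results are also given without them.

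In PD1hi cells against Tconv, 4 of the 8 genes rose (Dusp1, Dusp4, Dusp6, Spry1) and 2 fell (Dusp5, Dusp10). Against Treg, Dusp6 and Spry1 rose in PD1hi cells and Dusp5 fell. In Treg against Tconv, Dusp4 and Spry1 rose and Dusp10 fell. So the phosphatases did not shift as a block: of those specific for ERK, Dusp6 was high in PD1hi cells while Dusp5 was low. The nuclear phosphatases did not share a direction in PD1hi against Tconv either: Dusp1 and Dusp4 rose, Dusp5 fell and Dusp2 was not called. The part of place in the cell was not tested. Calls are limma adjusted p under 0.05, with Benjamini-Hochberg adjustment over 14177 genes. In PD1hi against Tconv 26.1% of all genes tested passed that rule (14.2% higher, 11.9% lower), in PD1hi against Treg 16.5% (8.16% higher, 8.39% lower) and in Treg against Tconv 14.4% (8.73% higher, 5.66% lower). The median log2 fold change of the 8 genes was 0.84, 0.49 and 0.36 in these 3 comparisons, against 0.00, -0.01 and 0.01 over all genes tested. Since the 3 comparisons share their populations, their counts are not separate results. Without both libraries that stand apart, 6, 4 and 5 of the genes were called, but the shares over all genes given here are those of the main fit only.

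**Figure D1:**
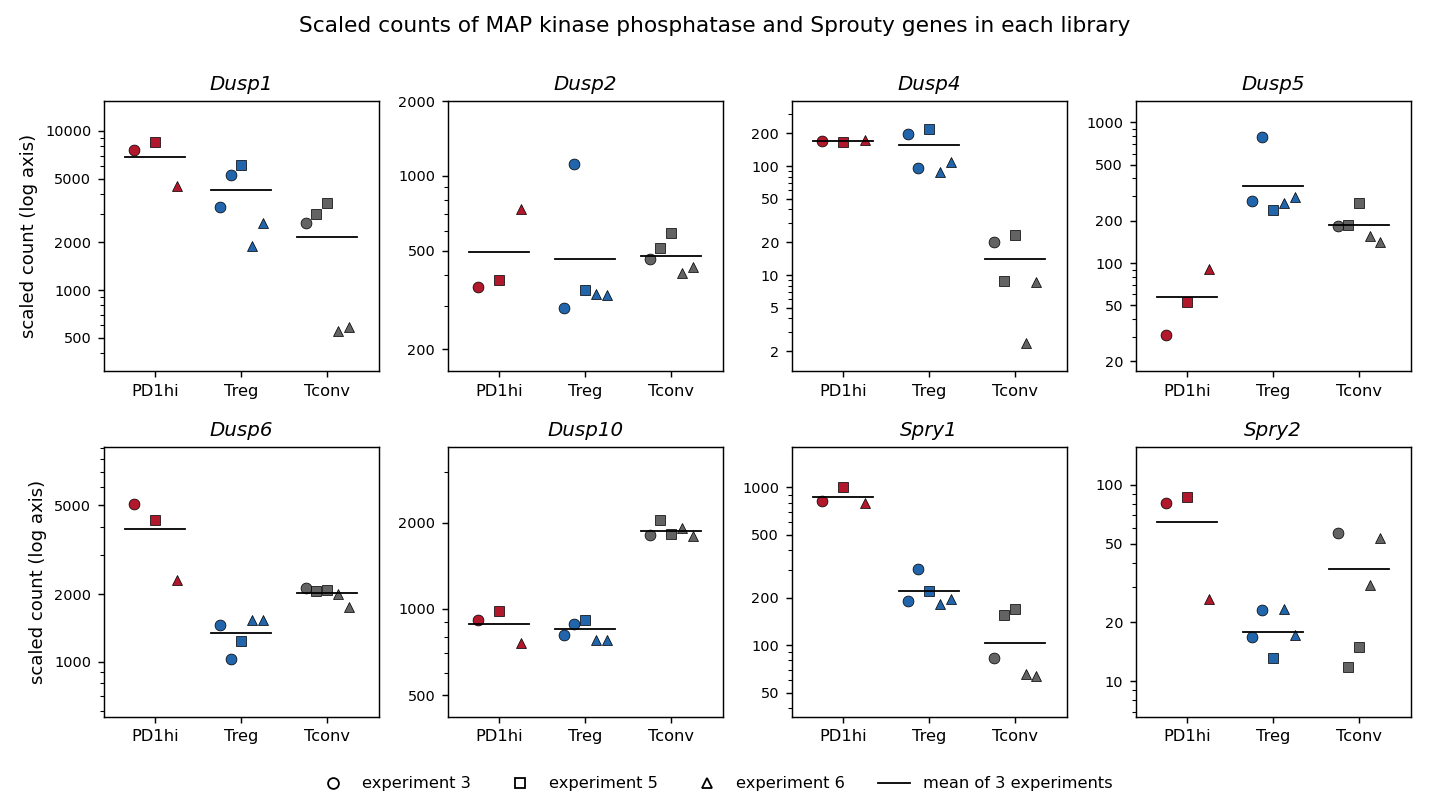
Scaled counts (log axis) of the 8 genes in each of the 13 libraries. Points are libraries, shapes mark the experiment and lines the mean of 3 experiments; Spry1 is highest in all 3 PD1hi libraries and Dusp10 in all 5 Tconv libraries.

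Spry1 (ENSMUSG00000037211), a membrane-bound inhibitor of signalling from receptors to Ras, differed between all 3 populations. In PD1hi libraries it measured 819, 1009 and 794 scaled counts in experiments 3, 5 and 6. Treg libraries had 189 and 305 in experiment 3, 221 in experiment 5, and 184 and 197 in experiment 6. Tconv libraries had 83.1 in experiment 3, 156 and 170 in experiment 5, and 65.1 and 63.3 in experiment 6. The 3 ranges do not overlap, with PD1hi on top, Treg between and Tconv lowest. PD1hi cells exceeded Tconv by 3.17 ± 0.30 (log2 ± SE, limma adjusted p = 1.12e-05), a fold of 9.01, and exceeded Treg by 1.99 ± 0.30 (limma adjusted p = 0.000569). The step between Treg and Tconv was 1.18 ± 0.30 (limma adjusted p = 0.0192). That last call was lost when the Treg values of experiment 3 (adjusted p = 0.0727) or 5 (0.0593), or the Tconv values of experiment 3 (0.0771) or 6 (0.0831), were left out of the limma fit. Within experiments the Treg excess was 1.56 in experiment 3, 0.44 in experiment 5 and 1.55 in experiment 6. A predicted transcript on the opposite strand, Gm42922, shares 710 exon bases with Spry1 in the GENCODE annotation, which is not that of the authors' counts. The strand setting of the counting is not given in the sources used here.

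Its relative Spry2 (ENSMUSG00000022114), also an inhibitor of signalling to Ras, was low, with 12 to 86 reads per library. PD1hi libraries had 81.0, 86.9 and 26.1 scaled counts in experiments 3, 5 and 6, so the library that stands apart was the low one. Treg libraries ranged narrowly, at 16.9, 23.0, 13.2, 23.4 and 17.2. Tconv libraries were split, with 56.5 in experiment 3, 11.9 and 14.9 in experiment 5, and 30.8 and 53.9 in experiment 6. The PD1hi values lie above every Treg value and overlap those of Tconv. Against Treg the difference was 1.65 ± 0.59 (95% interval 0.36 to 2.94, limma adjusted p = 0.0832), and without the PD1hi library of experiment 6 it was 2.20 ± 0.55 and passed the test (limma adjusted p = 0.0154). It also passed when the Tconv values of experiment 5 were left out (limma adjusted p = 0.0475). Against Tconv, PD1hi cells differed by 0.81 (95% interval -0.47 to 2.10, limma adjusted p = 0.353), and Treg differed from Tconv by -0.83 (95% interval -2.12 to 0.45, limma adjusted p = 0.444).

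Dusp6 (ENSMUSG00000019960), the cytoplasmic phosphatase specific for ERK, was highest in PD1hi cells. It measured 5071, 4313 and 2318 scaled counts in the PD1hi libraries of experiments 3, 5 and 6. Treg libraries had 1463 and 1022 in experiment 3, 1234 in experiment 5, and 1541 and 1542 in experiment 6. Tconv libraries were close together at 2134, 2076, 2087, 2007 and 1761. No 2 populations overlap, although the PD1hi library of experiment 6 lies just above the highest Tconv library. PD1hi cells exceeded Treg by 1.47 ± 0.24 (limma adjusted p = 0.000996) and Tconv by 0.87 ± 0.24 (limma adjusted p = 0.0185). Against Tconv the excess was 1.25, 1.05 and 0.30 in experiments 3, 5 and 6. Over all fits run, the excess over Tconv was 0.64 to 1.20 (limma adjusted p 5.01e-05 to 0.0691). It ceased to be called without PD1hi experiment 3 (0.64, limma adjusted p = 0.0665), without that of experiment 5 (0.76, adjusted p = 0.0691), without the Tconv values of experiment 6 (adjusted p = 0.0686) and in a fit with no trend (adjusted p = 0.0564). Treg lay below Tconv by a log2 difference of -0.61 ± 0.24, which missed the threshold (95% interval -1.13 to -0.08, limma adjusted p = 0.13). It passed when the PD1hi library of experiment 6 was left out of the shared variance (limma adjusted p = 0.00497) and in a fit of Treg and Tconv alone (limma adjusted p = 0.00874).

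Dusp5 (ENSMUSG00000034765), the nuclear phosphatase specific for ERK, was lowest in PD1hi cells. Its PD1hi values were 30.7, 52.5 and 90.2 scaled counts in experiments 3, 5 and 6. In Treg it had 274 and 786 in experiment 3, 240 in experiment 5, and 269 and 294 in experiment 6. In Tconv it had 184 in experiment 3, 186 and 268 in experiment 5, and 155 and 142 in experiment 6. Every PD1hi library lies below every other library, whereas Treg and Tconv libraries overlap. PD1hi cells fell by 2.62 ± 0.40 on the log2 scale against Treg (limma adjusted p = 0.000583), 6.15-fold lower, and by 1.78 ± 0.40 against Tconv (limma adjusted p = 0.00541), 3.44-fold lower. Treg and Tconv differed by 0.84 (95% interval -0.03 to 1.71, limma adjusted p = 0.217). The value of 786 belongs to the Treg library that stands apart, and with both such libraries left out the falls in PD1hi cells still passed the test. Over all fits run, the log2 difference from Treg was -3.00 to -2.24 (limma adjusted p 4.19e-05 to 0.00391). That from Tconv was -2.17 to -1.40 (limma adjusted p 0.000142 to 0.0249). An antisense gene, AC137853.2, shares 547 exon bases with Dusp5 in the GENCODE annotation, which is not that of the authors' counts. Reads of the pair cannot be told apart where counting ignored strand.

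Dusp4 (ENSMUSG00000031530), a nuclear phosphatase induced by ERK activity, was higher in PD1hi cells and in Treg than in Tconv. PD1hi libraries had 170, 168 and 175 scaled counts in experiments 3, 5 and 6. Treg libraries had 197 and 95.04 in experiment 3, 219 in experiment 5, and 88.0 and 110 in experiment 6. Tconv libraries had 20.2 in experiment 3, 8.91 and 23.5 in experiment 5, and 2.37 and 8.55 in experiment 6, which is 2 to 22 reads. Every PD1hi and Treg library lies above every Tconv library. PD1hi cells exceeded Tconv by 3.69 ± 0.44 (limma adjusted p = 7.11e-05) and Treg exceeded Tconv by 3.47 ± 0.44 (limma adjusted p = 0.000232). At these low counts the size depended on the scale: with a pseudocount of 10 both differences were smaller, 2.97 and 2.77, and without the libraries titled replicate that of Treg was 4.14, all past the test. PD1hi cells and Treg differed by 0.22 (95% interval -0.75 to 1.19, limma adjusted p = 0.807), an interval that allows a difference in either direction.

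Dusp1 (ENSMUSG00000024190), a nuclear phosphatase that acts on p38, JNK and ERK and is an immediate early gene, had the highest mean level per exon length of the 8 in each population. In Tconv that lead was slight, 654 scaled counts per kb of exon against 649 for Dusp6. There its experiments ran from 172 to 990, against 602 to 681 for Dusp6. In PD1hi cells the ranges of Dusp1 and Dusp6 overlapped as well. PD1hi libraries had 7543, 8558 and 4493 scaled counts in experiments 3, 5 and 6. Treg libraries had 3308 and 5273 in experiment 3, 6128 in experiment 5, and 1899 and 2654 in experiment 6. Tconv libraries had 2652 in experiment 3, 3014 and 3539 in experiment 5, and 556 and 585 in experiment 6. In every population experiment 6 was lowest and experiment 5 highest, with a ratio of highest to lowest of 1.90 in PD1hi, 2.69 in Treg and 5.74 in Tconv. PD1hi cells exceeded Tconv by 1.96 ± 0.56 (limma adjusted p = 0.0219), and by 1.51, 1.38 and 2.97 within experiments 3, 5 and 6. Without the Tconv values of experiment 6 the difference shrank to 1.17 ± 0.37 and was just past the threshold (limma adjusted p = 0.0498). Leaving out the PD1hi value of experiment 3 (limma adjusted p = 0.0563) or 5 (adjusted p = 0.0722) ended the call, as did a fit with no trend (adjusted p = 0.0683). A block for experiment kept it (limma adjusted p = 0.000867). Against Treg the PD1hi difference was 0.76 (95% interval -0.46 to 1.98, limma adjusted p = 0.428). Treg and Tconv differed by 1.20 ± 0.56 (95% interval -0.03 to 2.42, limma adjusted p = 0.211), with 0.69, 0.90 and 1.99 within experiments 3, 5 and 6, and the same difference passed in a fit blocked by experiment (± 0.28, limma adjusted p = 0.0187).

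Of 12 immediate early and heat shock genes, 7 had their lowest mean in experiment 6 in all 3 populations (Fos, Fosb, Jun, Junb, Nr4a1, Hspa1a and Hspa1b), whereas Atf3, Btg2, Egr1, Ier2 and Zfp36 did not. Fos, an AP-1 subunit, had 3793 to 5414 scaled counts in the libraries of experiment 6, 6624 to 8332 in experiment 5 and 14674 to 18284 in experiment 3. Hspa1a, a heat shock gene, had 12.9 to 68.5 in experiment 6, 330 to 1583 in experiment 5 and 349 to 1765 in experiment 3. So Dusp1 shares with both the low level in experiment 6, while experiment 3 leads for Fos and experiment 5 for Dusp1. The summed level of 12 such genes was 27009 to 50621 in PD1hi, 33058 to 53647 in Treg and 38674 to 60710 in Tconv, lowest in experiment 6 within each population. For the sum the order of the populations was the reverse of that for Dusp1, with PD1hi lowest and Tconv highest at both ends of the range. Most of the sum came from Zfp36 (means of 9316, 15635 and 16290 in PD1hi, Treg and Tconv), Btg2 and Fos. Taken singly, the genes differed. Mean levels of Fosb, Egr1, Hspa1a and Hspa1b were highest in PD1hi, as for Dusp1. Those of Jun, Junb, Nr4a1 and Atf3 were highest in Treg, and those of Fos, Ier2, Zfp36 and Btg2 in Tconv. Of the 11 tested, 1 rose (Egr1) and 1 fell (Zfp36) in PD1hi against Tconv and likewise against Treg, and none passed limma in Treg against Tconv, where 1 had an unadjusted p under 0.05. Their part in the Dusp1 result was not tested.

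Dusp2 (ENSMUSG00000027368), a nuclear phosphatase of activated lymphocytes, passed the limma test in no comparison (unadjusted p = 0.933, 0.761 and 0.699 for PD1hi against Tconv, PD1hi against Treg and Treg against Tconv). PD1hi libraries had 357, 381 and 737 scaled counts in experiments 3, 5 and 6. Treg libraries had 294 and 1112 in experiment 3, 347 in experiment 5, and 334 and 331 in experiment 6. Tconv libraries had 464 in experiment 3, 510 and 588 in experiment 5, and 406 and 428 in experiment 6. Both libraries that stand apart, the PD1hi one of experiment 6 and the second Treg one of experiment 3, are the high ones of their groups, and the other PD1hi and Treg libraries all lie below the 5 Tconv libraries. The difference of PD1hi cells was -0.03 against Tconv (95% interval -0.74 to 0.68, limma adjusted p = 0.965) and 0.10 against Treg (95% interval -0.61 to 0.81, limma adjusted p = 0.882). Treg differed from Tconv by -0.13 (95% interval -0.84 to 0.58, limma adjusted p = 0.866). With both odd libraries left out, a choice made after seeing the data, Treg lay below Tconv by a log2 difference of -0.55 ± 0.16 (limma adjusted p = 0.0292).

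Dusp10 (ENSMUSG00000039384), which prefers JNK and p38, was highest in Tconv and varied little between experiments, with a ratio of highest to lowest of 1.30 in PD1hi, 1.18 in Treg and 1.07 in Tconv. PD1hi libraries had 912, 985 and 758 scaled counts in experiments 3, 5 and 6. Treg libraries had 814, 883, 917, 779 and 781, and Tconv libraries had 1806, 2044, 1827, 1916 and 1797. Every PD1hi and Treg library lies below every Tconv library, and the libraries of PD1hi and Treg overlap. The log2 difference from Tconv was -1.08 ± 0.14 in PD1hi cells (limma adjusted p = 0.000151), 2.12-fold lower, and -1.14 ± 0.14 in Treg (limma adjusted p = 0.000215), 2.20-fold lower. PD1hi cells and Treg differed by 0.06, with a 95% interval of -0.26 to 0.37 (limma adjusted p = 0.852). No alternative setting changed any Dusp10 call.

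**Figure D2:**
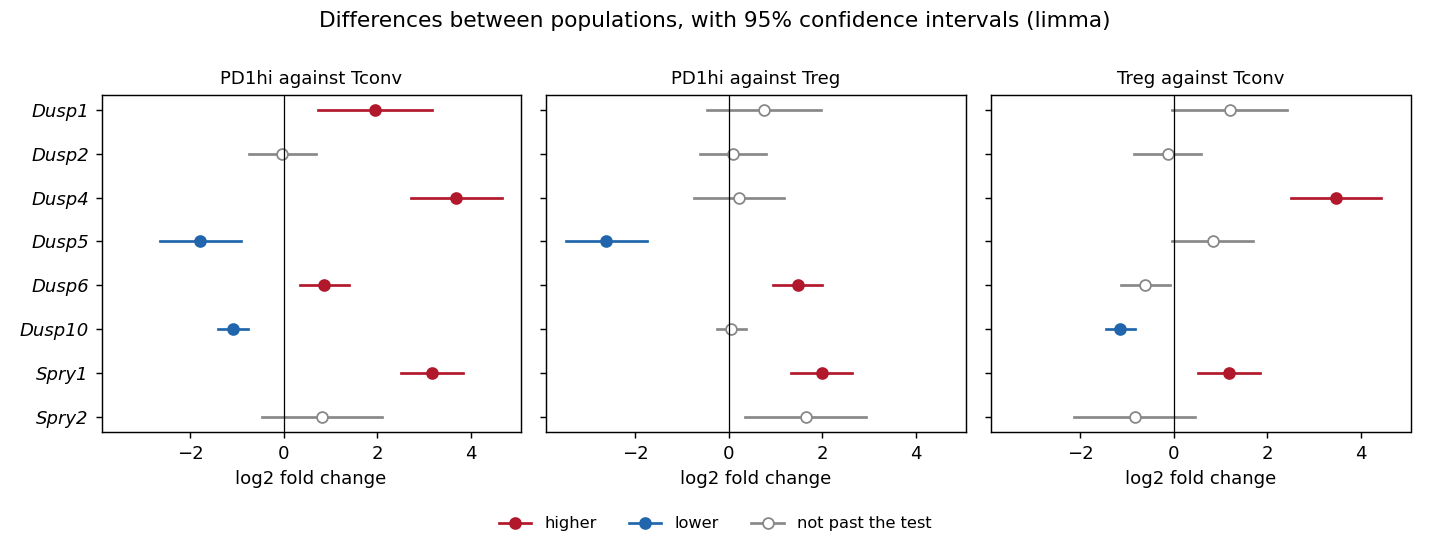
Log2 fold changes of the 8 genes in the 3 comparisons with 95% confidence intervals from limma, filled where the adjusted p is under 0.05. In PD1hi against Tconv 4 filled points lie to the right of 0 and 2 to the left; Dusp5 is the gene called lower in PD1hi cells against both other populations.

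**Figure D3:**
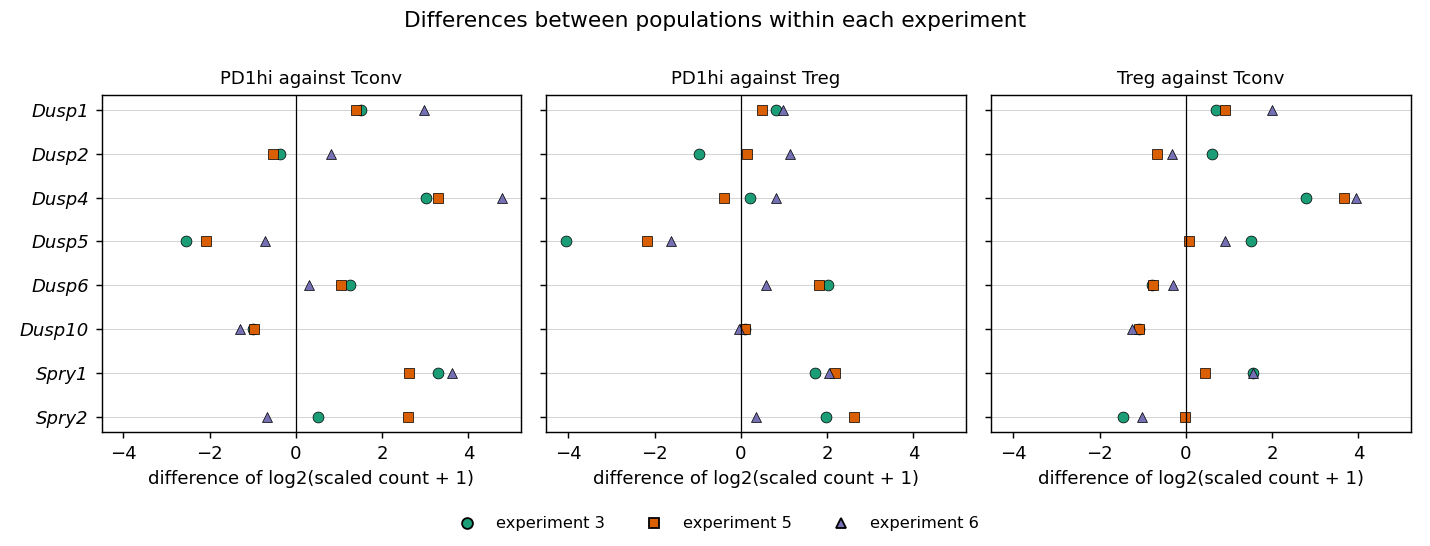
Differences of log2(scaled count + 1) between populations within each experiment, 1 point per experiment. Spry1 lies above 0 in all 3 experiments of every comparison, Dusp5 lies below 0 in all 3 for PD1hi against Tconv and Treg, and Dusp2 changes sign between experiments.

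Among themselves, the genes ordered differently in each population. Levels per exon length (scaled counts per kb of exon in the GENCODE annotation, mean ± SD of 3 experiments) allow genes to be set beside each other. In PD1hi cells Dusp1 led with 2073 ± 639 per kb, followed by Dusp6 with 1245 ± 454, and these overlap. Spry1 (300.7 ± 40.6), Dusp10 (290.9 ± 38.2) and Dusp2 (245 ± 106) overlap with their neighbours and were followed by Dusp4 (62.4 ± 1.4), Spry2 (31.0 ± 16.1) and Dusp5 (23.4 ± 12.2), of which the last pair overlap. In Treg the order was Dusp1 (1278 ± 582), Dusp6 (428 ± 55.9), Dusp10 (279 ± 22.5), Dusp2 (230.1 ± 105), Dusp5 (142 ± 63.5), Spry1 (75.5 ± 9.8), Dusp4 (56.4 ± 22.1) and Spry2 (8.5 ± 1.9). Ranges of neighbours overlap for Dusp10 and Dusp2, Dusp2 and Dusp5, and Spry1 and Dusp4. In Tconv, Dusp1 (654 ± 428), Dusp6 (649 ± 42.2) and Dusp10 (613 ± 21.4) overlap at the top, then came Dusp2 (238 ± 33.3), Dusp5 (75.4 ± 15.9), Spry1 (35.6 ± 18.0), Spry2 (17.9 ± 10.5) and Dusp4 (5.1 ± 2.8), of which the last 3 overlap with their neighbours. Spry1 thus moved to the third place in PD1hi cells and stood at the sixth in the other populations, while Dusp5 was last in PD1hi cells and just above Spry1 in the others.

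**Figure D4:**
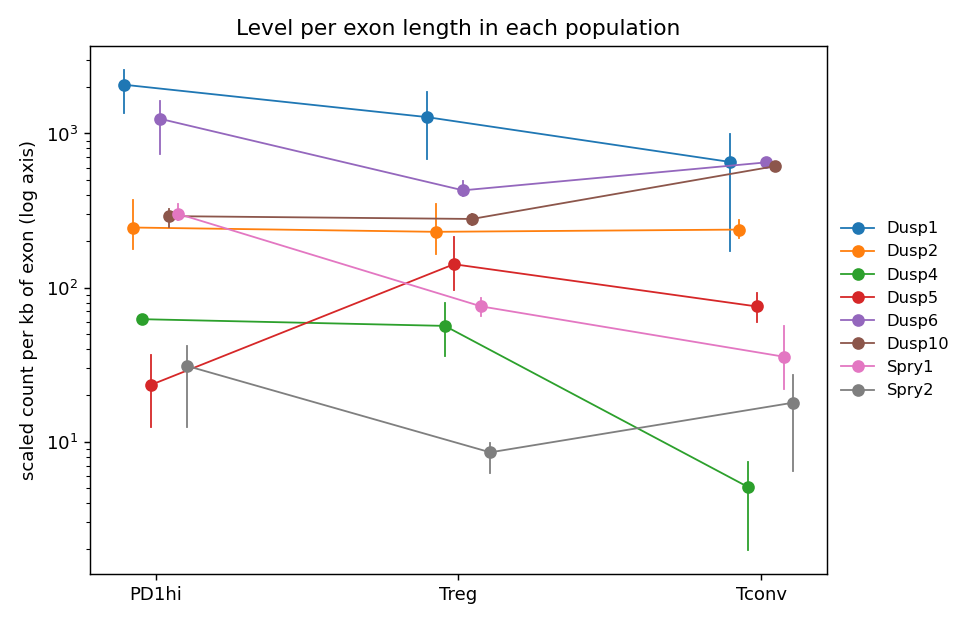
Level per exon length (scaled count per kb, log axis) of the 8 genes in each population. Points are means of 3 experiments and bars run between the lowest and highest experiment; Dusp2 is nearly level at 245, 230.1 and 238 while the lines of Dusp5 and Spry1 cross between PD1hi and Treg.

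The rest of the machinery was read from 8 further lists. Beside their counts stand the shares over all genes: 26.1% in PD1hi against Tconv, 16.5% in PD1hi against Treg and 14.4% in Treg against Tconv. Of the other MAP kinase phosphatases, Dusp16, which acts on JNK and p38, rose in PD1hi cells by 2.54 ± 0.29 against Tconv (limma adjusted p = 4.39e-05) and by 0.98 ± 0.29 against Treg (limma adjusted p = 0.0364), and rose in Treg by 1.56 ± 0.29 against Tconv (limma adjusted p = 0.00283). Its levels were 280 ± 68.7 in PD1hi, 140.3 ± 22.2 in Treg and 47.6 ± 13.4 in Tconv (SD, n = 3), an order like that of Spry1. Dusp7, which acts on ERK, fell by 0.78 ± 0.16 on the log2 scale in PD1hi cells against Tconv. Dusp8 and Dusp9 were too low to test. Phosphatases of the JNK and p38 branch thus differ in direction, with Dusp16 higher and Dusp10 lower in PD1hi cells than in Tconv.

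Of 9 atypical dual specificity phosphatases, smaller enzymes without the MAP kinase docking domain, 2 rose and 1 fell in PD1hi against Tconv, 2 rose in PD1hi against Treg, and none passed limma in Treg against Tconv, where 1 had an unadjusted p under 0.05. Dusp14, known in mice as a brake on T cell receptor signalling, averaged 625 ± 113 scaled counts in PD1hi, 82.9 ± 8.7 in Treg and 46.7 ± 24.8 in Tconv. It rose by 3.81 ± 0.33 against Tconv (limma adjusted p = 5.85e-06) and by 2.89 ± 0.33 against Treg (limma adjusted p = 7.06e-05). The rise against Treg was larger than that of any of the 8 genes. Against Tconv it was close to the 3.69 ± 0.44 of Dusp4. Dusp3 rose by 1.45 and 1.35 in the same comparisons, and Dusp11, a phosphatase of RNA, fell by 0.67 against Tconv. Of the other Sprouty relatives, 3 were tested: the Ras inhibitor gene Spred1 rose by 1.63 ± 0.38 in PD1hi against Tconv, and Spred2 rose by 1.08 ± 0.29 against Tconv and by 1.19 ± 0.29 against Treg. Spry4 was too low to test.

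Of 11 tested brakes on Ras and ERK outside these families, 4 rose and 3 fell in PD1hi against Tconv, 2 rose and 3 fell in PD1hi against Treg, and 2 rose and 1 fell in Treg against Tconv. Nf1, which encodes the Ras GTPase activating protein neurofibromin, averaged 384 ± 107 scaled counts in PD1hi, 136 ± 8.6 in Treg and 118 ± 3.2 in Tconv and rose by 1.65 ± 0.23 against Tconv and 1.45 ± 0.23 against Treg. Dab2ip, which encodes another Ras GTPase activating protein, had 292 reads in the 3 PD1hi libraries, 150 in the 5 Treg libraries and 1 in the 5 Tconv libraries. Per summed size factor that is a ratio of 496 for PD1hi over Tconv (exact 95% counting interval 88.3 to 19700) and 135 for Treg over Tconv (23.9 to 5380). Both ratios rest on 1 Tconv read, and the intervals leave out the spread between libraries. On the scale of log2(scaled count + 1), PD1hi exceeded Tconv by 6.41 ± 0.56 (limma adjusted p = 6.46e-06). Rasa1 rose by 0.78 in PD1hi against Tconv, whereas Rasa3 fell by 1.41, Rasal1 fell by 0.997 and the adaptor gene Dok2 fell by 0.61 on the log2 scale. Rasal1 also fell by 0.73, Dok2 fell by 0.81 and Dok1 fell by 0.85 in PD1hi against Treg. In Treg against Tconv, Dok1 rose by 1.33 and Rasa3 fell by 1.19.

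In the ERK cascade itself 15 genes were tested, of which 4 rose and 2 fell in PD1hi against Tconv, 3 rose and 2 fell in PD1hi against Treg, and none passed limma in Treg against Tconv, where 3 had an unadjusted p under 0.05. The scaffold gene Ksr1 rose by 1.62 ± 0.32 in PD1hi against Tconv and by 1.15 ± 0.32 in PD1hi against Treg, and the exchange factor gene Sos2 rose by 0.86 ± 0.19 in PD1hi against Treg. Rasgrp1, the main activator of Ras downstream of the T cell receptor, went the other way. It averaged 2080 ± 53.1 in PD1hi, 4306 ± 94.1 in Treg and 5067 ± 266 in Tconv, and fell by 1.28 ± 0.11 against Tconv and by 1.05 ± 0.11 against Treg on the log2 scale. Nras fell by 0.93 against Tconv and the kinase gene Rps6ka1 fell by 0.64 against Treg.

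The JNK list held no limma call among 7 tested genes in PD1hi against Tconv, where 1 had an unadjusted p under 0.05. Mapk9 (JNK2) fell by 0.81 ± 0.14 in PD1hi against Treg and rose by 0.75 ± 0.14 in Treg against Tconv. Of 11 tested p38 and Gadd45 genes, 5 rose in PD1hi against Tconv, 2 in PD1hi against Treg and 3 in Treg against Tconv, and none fell by limma, with unadjusted p under 0.05 for a lower level in 0, 1 and 2 genes. Mapk12 (p38 gamma) rose by 2.39 ± 0.52 and 1.76 ± 0.52 in PD1hi against Tconv and Treg. Gadd45b, which binds upstream kinases of p38, averaged 812 ± 92.0 in PD1hi, 501 ± 146 in Treg and 204 ± 93.2 in Tconv and rose by 2.09 ± 0.32 in PD1hi and 1.35 ± 0.32 in Treg, both against Tconv. Mapkapk2, a kinase activated by p38, rose by 1.20 in PD1hi against Tconv, and Map2k3, an activator of p38, rose by 0.998 in PD1hi against Treg. Map3k5 rose by 0.79 and Mapkapk3 by 0.58 in Treg against Tconv.

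Genes known to respond to ERK activity did not move together. Of 10 tested, 3 rose and 1 fell in each of the 3 comparisons. Egr2, a transcription factor gene, averaged 4818 ± 1093 scaled counts in PD1hi, 1642 ± 135 in Treg and 840 ± 87.3 in Tconv and rose by 2.50 ± 0.18, 1.53 ± 0.18 and 0.97 ± 0.18 in PD1hi against Tconv, PD1hi against Treg and Treg against Tconv. Etv5 rose by 1.85 in PD1hi and by 1.70 in Treg, both against Tconv, with 317 ± 79.9, 282 ± 33.3 and 85.7 ± 1.5 in PD1hi, Treg and Tconv. Like Dusp4, it was near level between PD1hi and Treg and low in Tconv. Egr1 rose by 1.09 and 1.10 in PD1hi against Tconv and Treg, and Phlda1 rose by 1.11 in Treg against Tconv. Myc averaged 812 ± 151 in PD1hi, 2924 ± 449 in Treg and 3171 ± 277 in Tconv and fell by 1.98 ± 0.17 against Tconv and 1.85 ± 0.17 against Treg. Ier3 averaged 74.7 ± 41.6 in PD1hi, 11.9 ± 1.2 in Treg and 111 ± 32.6 in Tconv, rose by 2.41 ± 0.42 in PD1hi against Treg and fell by 3.08 ± 0.42 in Treg against Tconv.

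**Figure D5:**
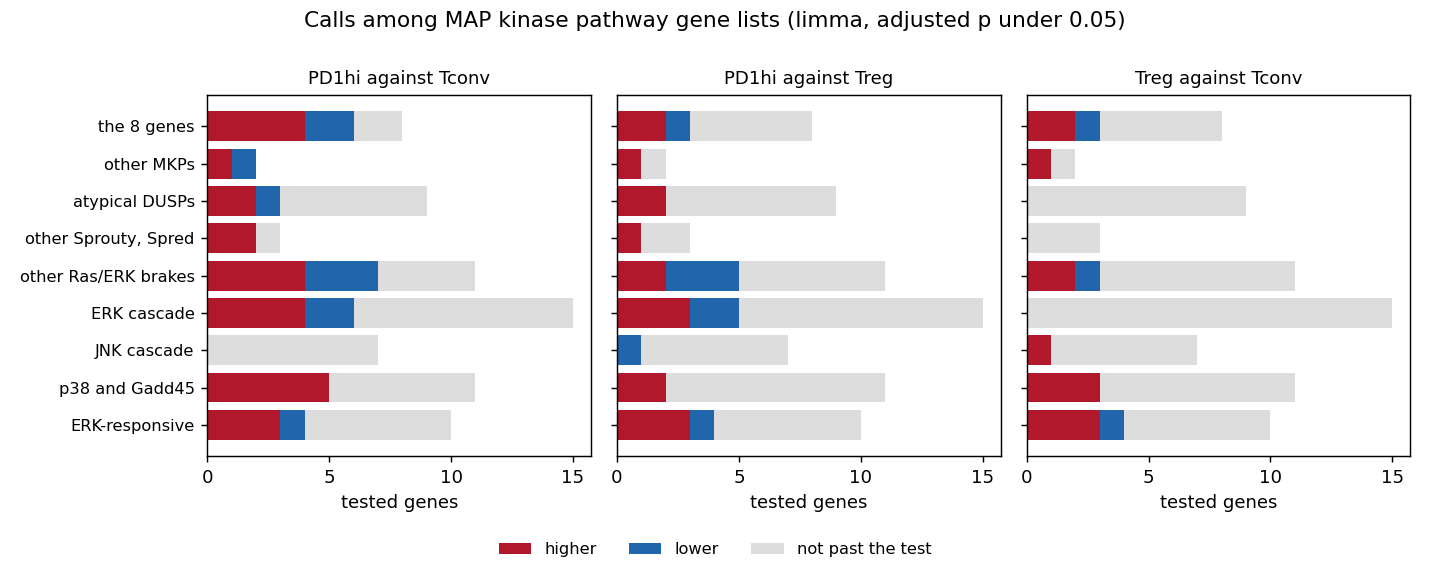
Number of tested genes called higher, lower or not past the test (limma, adjusted p under 0.05) in the 8 genes and 8 further lists, by comparison. In PD1hi against Tconv, where 26.1% of all genes tested are called, no JNK gene of 7 is called and 5 of 11 p38 and Gadd45 genes are higher. In Treg against Tconv, where 14.4% of all genes are called, none of 15 ERK cascade genes is. Short lists near these shares are not read as a result about the list.

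The 9 list medians of the log2 fold change in PD1hi against Tconv ran from 0.01 for the JNK list to 1.63 for the other Sprouty and Spred genes, with 0.08 for the ERK cascade, 0.32 for ERK-responsive genes, 0.36 for the other brakes, 0.57 for p38 and Gadd45, 0.60 for atypical phosphatases, 0.84 for the 8 genes and 0.88 for the other MAP kinase phosphatases. In PD1hi against Treg the other Sprouty and Spred genes again had the highest median, 1.19, and the JNK list the lowest, -0.03. In Treg against Tconv the medians lay between -0.10 for ERK-responsive genes and 0.73 for the other Sprouty and Spred genes. Lists of 2 or 3 tested genes rest on few values.

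For each of the 8 genes whose population means differed by more than 1 on the log2 scale, the genes with the most similar profile over the 9 values of population and experiment were sought among 14177, as the root mean square of the centred log2 difference. Dusp10 had the smallest distances, to Pus7l (0.12), Cdyl2 (0.14) and Emb (0.15), where the median over all genes was 0.66. The distance is not scaled by spread, and Dusp10 also had the smallest spread between population means of these genes (1.14, log2). Emb, which encodes the surface protein embigin, averaged 3133 in PD1hi, 2866 in Treg and 6805 in Tconv, the same order as Dusp10 at higher counts. Nearest to Spry1 were Egln3 (0.20), Ppfibp1 (0.26) and Stx11 (0.30), against a median of 1.41. Stx11, a syntaxin of secretory granule release, averaged 2277 in PD1hi, 563 in Treg and 183 in Tconv.

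Dusp5 lay nearest to Dennd5a (0.41), Airn (0.45) and Cd72 (0.47), against a median of 1.25. Cd72 averaged 209 in PD1hi, 1820 in Treg and 993 in Tconv, low in PD1hi cells as Dusp5 was. Dusp4 lay nearest to 2010107G23Rik (0.34), 9630013D21Rik (0.45) and Prnp (0.45), the prion protein gene, which averaged 665 in PD1hi, 363 in Treg and 51.6 in Tconv. Dusp6 lay nearest to B230217O12Rik (0.22), Vmn2r96 (0.24) and 2310004I24Rik (0.25), and Spry2 to Bend4 (0.35), Zfp931 (0.52) and Traj56 (0.52). The neighbours of Dusp1 were Gm15063 (0.42), Hist1h2ai (0.43) and Ighv1-53 (0.46). Vmn2r96, Hist1h2ai, Ighv1-53 and Traj56 belong to multigene families whose reads may be split between copies. The points of these profiles share libraries and depth, so the likeness is a description of 9 values.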

How the data were processed

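Bulk RNA-seq was measured in 13 libraries of sorted splenic CD4 T cells. Trizol RNA was depleted of ribosomal RNA and made into Ion Torrent libraries, per the labels' protocols. HTSeq 0.5.4, Picard and limma are the tools that the submitters' processing notes list, with mm9 among the builds. The sources used here give neither aligner nor strand setting. Signal values, which are counts scaled by size factors, were deposited by the authors in 1 table. Each value equalled 1 plus whole reads times a library constant (100% of values, within 0.001 reads), so 1 was subtracted; recovered reads served only for depth and counting intervals, which cover counting error only. The table was treated as scaled counts and no count test was run.

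Libraries that share population and experiment were averaged to 9 values, 3 per population, after chi-square comparison of reads showed that each pair differed by more than sampling noise (7.768 to 73.5 per degree of freedom). Nothing says whether samples came from separate animals, and p-values reflect only the spread among these samples, in part perhaps technical. Genes with a mean of at least 10 were tested with limma 3.58.1 (R 4.3.3) with a trend on log2(scaled count + 1), 2-sided, 1 variance for all populations; the script was tested on simulated data. The titles give the experiment that same-numbered libraries share, so a fit with it as a block is an alternative. Deviations of same-numbered values from their population means correlated at 0.24, 0.22 and 0.30 for Treg with Tconv, 0.20, 0.12 and 0.02 for PD1hi with Tconv, and 0.09, 0.17 and -0.07 for PD1hi with Treg (experiments 3, 5 and 6). Other alternatives were equal library totals, other pseudocounts and filters, no trend, libraries kept separate or dropped, 2 populations only, and each value left out. Promoter sequences are RefSeq's. Exon lengths and overlapping genes are from GENCODE, not from the annotation behind the authors' counts. The 8 genes, the lists and the rule for named genes (at most 3 called genes per direction, list and comparison by size of change, and the 3 closest profiles) were chosen with earlier results of these data known. Spry3, Hras, Mapk13, Epha2 and Epha4 were not matched by symbol, and Map3k4 has 2 rows and was not counted. Some genes of these lists are counted but not reported here by name.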

Additional observations from a re-analysis of the deposited data

Results flagged for a closer look

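In the Treg and Tconv groups, of 5 libraries each, the highest and lowest library of each of the 8 genes were compared with the rest of their group by Dixon's ratio. That made 16 checks, of which chance alone flags about 1 in 20. The PD1hi group, of 3 libraries, was not checked in this way. The second Treg library of experiment 3 was far above the other Treg libraries for Dusp2, with 1112 scaled counts against 294 to 347 in the other 4, and for Dusp5, with 786.4 against 240 to 294. Its partner from the same experiment had 294 and 274. The pair had a chi-square of 73.5 per degree of freedom over all genes, whereas the other pairs had 7.768 to 9.047. In the PD1hi library of experiment 6, Dusp2 (737) and Dusp5 (90.2) were likewise the highest of the 3 PD1hi libraries.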

How the results depend on the processing

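Of 24 results (8 genes in 3 comparisons), 13 kept their direction and their side of the threshold under every alternative run, 21 for each except Spry2, which a minimum mean of 50 removes. With the experiment as a replicate block, 6, 3 and 4 of the genes were called in PD1hi against Tconv, PD1hi against Treg and Treg against Tconv, against 6, 3 and 3 without it; the block added the call of Dusp1 in Treg against Tconv (adjusted p = 0.0187) and changed no other call of the 8. Without both libraries that stand apart, chosen after seeing the data, 5 of the 8 were called in Treg against Tconv, Dusp2 and Dusp6 being added. Leaving out 1 value at a time gave 4 to 6, 3 to 4 and 2 to 4 calls. These counts and those with the block or without both libraries have no share over all genes beside them. They are not read as a result about the 8 genes as a set. Differences near 0 changed sign. Dusp2 in PD1hi against Tconv was 0.12 with equal totals, 0.0207 without the libraries titled replicate and -0.36 to 0.16 with 1 value left out. With 1 value left out, PD1hi against Treg gave -0.23 to 0.45 for Dusp2, -0.0643 to 0.50 for Dusp4 and -0.0263 to 0.16 for Dusp10, and Treg against Tconv gave -0.48 to 0.0612 for Dusp2. The cause was not tested. Equal totals moved the median of all genes by 0.14, 0.08 and 0.07 (log2) and the calls in PD1hi against Tconv to 2457 higher and 1299 lower, against 2012 and 1688, and no call of the 8 changed. Dusp4 in Tconv and Spry2 everywhere rest on few reads, which limits their precision.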
